A study of Mus musculus with 8 samples.

Results

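The cholesterol genes Hmgcs1, Sqle, Idi1, Fdft1, Fdps, Lss, Insig1 and Srebf2 were examined in the colon of chimeric mice. They were taken by name from the deposited table of normalized read counts, as known targets of one sterol-regulated transcription factor and the gene of that factor. All 8 genes were among the 26008 genes of the table, and all 8 passed the filter on low values that left 19127 genes for testing (a mean of at least 10 normalized counts over the 8 libraries). Hmgcs1, Idi1, Fdps, Fdft1, Sqle and Lss code for synthesis enzymes, and Insig1 and Srebf2 for regulators. None codes for an uptake receptor, so uptake genes are described from a separate list.

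The chimeras were male C57BL/6JRj wild-type mice, lethally irradiated at 7 weeks of age and grafted with bone marrow of male Penk-/- or Penk+/+ donors. Penk codes for proenkephalin, the precursor of the enkephalin opioid peptides, and is interrupted throughout the body of the knockout donors. In the recipients the deletion is therefore carried only by the blood-derived cells that grew from the graft, whereas epithelium, muscle, nerves and stroma keep the wild-type gene in both groups. Colon biopsies were collected 18 weeks after the graft from 4 mice of each group, with 1 library per mouse. A step specific to the library divided 100% of its values into whole numbers (within 0.01), and these summed to 33.1 to 50.7 M reads per library.

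Cells make cholesterol from acetyl-CoA through the mevalonate pathway, and take it up as lipoprotein. When sterol is scarce in the endoplasmic reticulum, the protein SREBP2, the product of Srebf2, is carried to the Golgi apparatus, cut, and released to the nucleus, where it raises transcription of genes of sterol synthesis and uptake. INSIG1 holds the SREBP2 precursor in the endoplasmic reticulum and is itself a target, so that the system is regulated mainly at the level of the protein. In the gut, epithelial cells synthesize, absorb and export sterols.

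Penk transcripts were detected in every library of both groups. Penk had 453, 512, 616 and 531 normalized counts in Penk-/- replicates 1 to 4, and 473, 496, 560 and 636 in the Penk+/+ replicates 1 to 4. The log2 fold change of Penk-/- over Penk+/+ was -0.03 (standard error 0.12, limma adjusted p = 0.957). Since the host tissue keeps its own Penk gene, this level does not check the genotype of the graft.

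Epithelial markers were abundant in both groups, which does not by itself identify the tissue as colon. Krt8, a keratin and the most abundant epithelial gene of the marker list per kb of exon, averaged 141965 ± 18125 normalized counts in the Penk-/- and 156778 ± 10159 in the Penk+/+ group (SD, n = 4 each). Apart from the rest stood Penk-/- replicate 3 and Penk+/+ replicate 4, which had 105658 and 111024 normalized counts of Pbsn, a secretory gene of the prostate, against 0 to 13430 in the other 6 libraries. The 6 prostate and accessory gland genes that were tested made up 0.618% and 0.580% of the counts of these 2 libraries and 0.0288% to 0.106% of the others. Where Pbsn was 0, in Penk-/- replicate 1 and Penk+/+ replicate 3, Spink1 made up 11545 of 11717 and 10895 of 10990 of these normalized counts. Spink1 did not follow Pbsn and was lowest (7372) in Penk-/- replicate 3, so the lower shares are no measure of gland tissue. The 2 Pbsn-rich libraries were also the deepest, with 50.7 and 48.0 M reads. They had the largest sums of 7 adipocyte markers (10133 and 3962 normalized counts, against 1159 to 3363 in the others). The median fold change and median correlation of the cholesterol genes examined are given with and without them, as is the fold change of Cyp27a1. Most other results, among them the medians of the gene lists, are given only with them.

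The sequences upstream of the genes were searched for motifs that sterol-regulated promoters are known for. RefSeq promoters were matched for 5 genes (Hmgcs1, Idi1, Insig1, Lss and Srebf2), and Sqle, Fdft1 and Fdps were not matched. RefSeq gives these promoters on GRCm38.p6, and each window was found once by exact match on its chromosome in GRCm39. The 250 bases before the RefSeq start were searched on both strands for a sterol regulatory element (TCACNCCAC, with N for any base), a shorter form contained in it (CACNCCAC), an NF-Y box (CCAAT), an Sp1 box (GGGCGG) and an E-box (CACGTG). The windows printed are those of the enzyme gene with a full sterol element and of both regulators, on the + strand, with matches in capitals. They end before the earlier of the RefSeq and GENCODE gene starts, and thus lie upstream of the annotated gene.
Hmgcs1, chr13:120151637-120151886: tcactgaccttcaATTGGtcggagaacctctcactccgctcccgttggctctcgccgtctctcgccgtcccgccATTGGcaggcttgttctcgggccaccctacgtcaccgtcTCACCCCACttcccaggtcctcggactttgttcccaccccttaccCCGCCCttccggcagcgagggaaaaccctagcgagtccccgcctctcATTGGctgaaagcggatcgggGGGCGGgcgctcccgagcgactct
Insig1, chr5:28276160-28276314: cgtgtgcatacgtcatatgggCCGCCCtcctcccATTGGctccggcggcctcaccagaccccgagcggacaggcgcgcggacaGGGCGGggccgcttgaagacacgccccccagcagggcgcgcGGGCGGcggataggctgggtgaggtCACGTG
Srebf2, chr15:82031220-82031381: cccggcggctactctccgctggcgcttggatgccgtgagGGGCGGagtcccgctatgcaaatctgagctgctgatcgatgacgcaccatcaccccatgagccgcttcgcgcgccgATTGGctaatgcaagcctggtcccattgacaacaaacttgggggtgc

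In Hmgcs1 the capitals mark the sterol element TCACCCCAC at -137 from the RefSeq start, which also holds the shorter form, NF-Y boxes at -237, -176 and -45, read on the opposite strand as ATTGG, and Sp1 boxes at -92 and -24. In Insig1 they mark an NF-Y box at -216, Sp1 boxes at -229, -167 and -126, and an E-box at -101. In Srebf2 they mark an Sp1 box at -211 and an NF-Y box at -135. Over the whole 250 bases, 1 of the 5 windows held the full sterol element and 2 of 5 the shorter form, against 1.05% and 5.29% of 32851 promoter windows of the same length. The second match of the shorter form was in Insig1 at -9, on the minus strand. All 5 held an NF-Y box and all 5 an Sp1 box, against 33.8% and 32.7% of all windows. The E-box was found in 1 of 5, against 6.02%. These are matches of letters, not binding sites.

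No gene of the group passed the adjusted threshold between genotypes, although the synthesis enzymes had lower means in Penk-/- chimeras. Across the 19127 genes limma called 0% at an adjusted p below 0.05. At an unadjusted p below 0.05 it called 1842 genes, or 9.63%, of which 5.33% were lower and 4.3% higher in Penk-/- chimeras. In Penk-/- chimeras 7 of the 8 genes had a lower mean and 1 a higher mean, where 48.9% of all genes were lower. The median log2 fold change of the 8 was -0.19, against 0.01 for all genes tested. One gene, Sqle, was below an unadjusted p of 0.05. None of the 8 was separated between the groups, where 5.63% of all genes were, 2.74% lower and 2.89% higher in every Penk-/- library than in every Penk+/+ library.

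Hmgcs1 codes for the cytosolic synthase that makes HMG-CoA, an early intermediate of the pathway. It lies at chr13:120151915-120170470 (GRCm39, + strand, ENSMUSG00000093930). It had 7503, 8459, 6763 and 8722 normalized counts in Penk-/- replicates 1 to 4, and 10054, 10221, 11974 and 7338 in the Penk+/+ replicates 1 to 4. The first 3 Penk+/+ libraries were above all Penk-/- libraries, and the last was below 3 of them. The log2 fold change was -0.32 (standard error 0.14, 95% interval -0.64 to 0.0040, limma adjusted p = 0.523, exact permutation p = 0.143).

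Idi1 and Fdps act on the isoprenoid units, Idi1 as the isomerase of isopentenyl diphosphate and Fdps as the synthase of farnesyl diphosphate. Idi1 (chr13:8935537-8942487, + strand) had 1426, 1549, 1208 and 1414 normalized counts in the Penk-/- and 1696, 1721, 2113 and 1027 in the Penk+/+ replicates 1 to 4. Again Penk+/+ replicates 1 to 3 were above the Penk-/- libraries and replicate 4 was below them all. Its log2 fold change was -0.19 (standard error 0.19, limma adjusted p = 0.800). Fdps (chr3:89000888-89019213, minus strand) had 148, 197, 142 and 196 normalized counts in the Penk-/- and 162, 213, 260 and 140 in the Penk+/+ replicates 1 to 4, and the groups were interleaved. Its log2 fold change was -0.15 (standard error 0.21, limma adjusted p = 0.860).

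Fdft1, Sqle and Lss carry the pathway from farnesyl units to the first sterol: Fdft1 makes squalene, Sqle epoxidizes it in a rate-limiting step, and Lss closes the rings to lanosterol. Fdft1 (chr14:63382189-63417027, minus strand) had 2777, 3312, 2368 and 3498 normalized counts in the Penk-/- and 4174, 3977, 4889 and 2460 in the Penk+/+ replicates 1 to 4. Its log2 fold change, -0.35 (standard error 0.20, limma adjusted p = 0.638), was the most negative of the 8. Sqle (chr15:59186869-59203043, + strand) had 3587, 4117, 3226 and 3992 normalized counts in the Penk-/- and 4975, 4916, 5706 and 3456 in the Penk+/+ replicates 1 to 4. Both genes showed the order seen for Hmgcs1, with Penk+/+ replicates 1 to 3 above all Penk-/- libraries and replicate 4 among the lowest. For Sqle the log2 fold change was -0.34 (95% interval -0.66 to -0.0090, limma adjusted p = 0.504), and an exact permutation test over the 70 assignments of 4 libraries gave p = 0.114 (two-sided, smallest possible 0.0286). Lss (chr10:76367298-76392976, + strand) had 1137, 1560, 1379 and 1504 normalized counts in the Penk-/- and 1419, 1480, 2070 and 1171 in the Penk+/+ replicates 1 to 4. The groups overlapped between 1171 and 1560, and its log2 fold change was -0.12 (standard error 0.17, limma adjusted p = 0.869).

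Of the regulators, Insig1 (chr5:28276315-28283668, + strand) had 3890, 4391, 4190 and 3860 normalized counts in the Penk-/- and 5251, 4606, 5987 and 3339 in the Penk+/+ replicates 1 to 4. It followed the enzymes, with replicate 4 as the only Penk+/+ library below the Penk-/- libraries, and its log2 fold change was -0.20 (standard error 0.15, limma adjusted p = 0.718). Srebf2 (chr15:82031382-82093201, + strand) had 7685, 8721, 6852 and 7947 normalized counts in the Penk-/- and 7710, 7746, 7615 and 7301 in the Penk+/+ replicates 1 to 4. Its Penk+/+ values lay within the range of its Penk-/- values. The log2 fold change of Srebf2 was 0.03 (95% interval -0.13 to 0.20, limma adjusted p = 0.920).

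**Figure D1:**
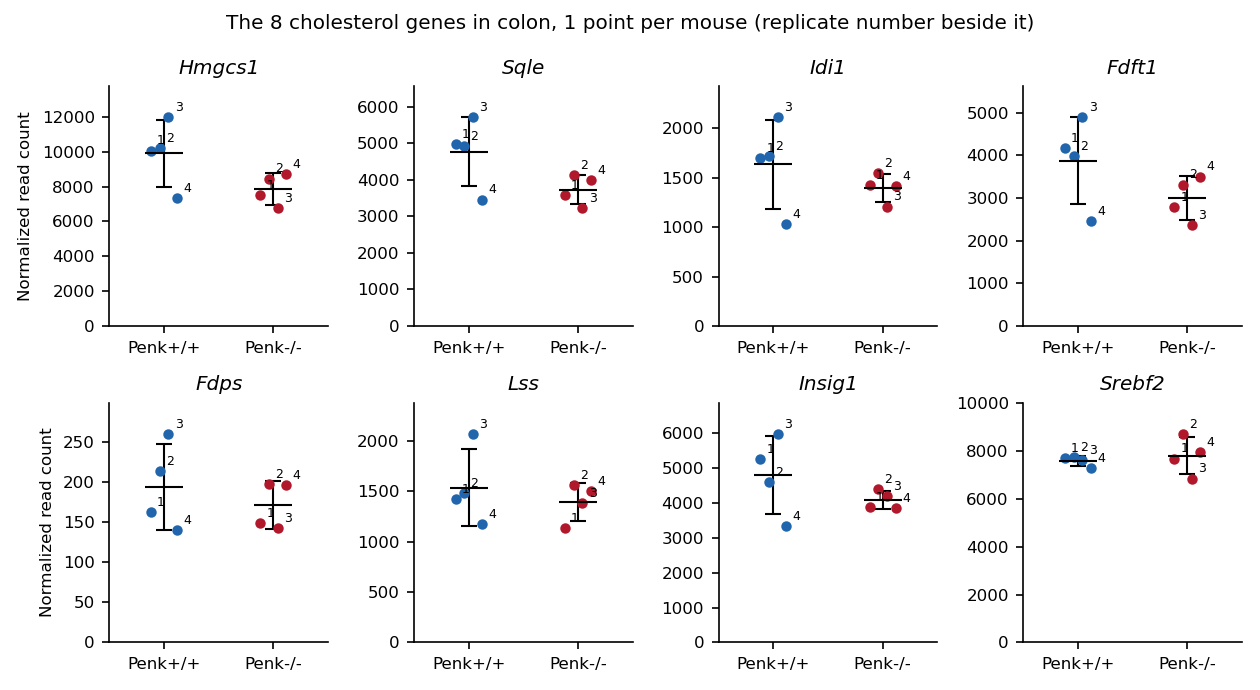
Normalized read count (vertical axes, linear from 0) of each of the 8 genes by genotype, with 1 point per mouse, its replicate number, and the mean and SD of 4 mice as bars. Penk+/+ replicate 3 is the highest point for 7 of the 8 genes and Penk+/+ replicate 4 is among the lowest 2 for all 8.

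The levels of the 8 genes differed widely per length. The mean over all libraries was 1685 normalized counts per kb of exon for Hmgcs1, 909 for Insig1, 824 for Srebf2, 718 for Fdft1, 478 for Sqle, 428 for Idi1, 129 for Lss and 37.3 for Fdps. Sqle overlaps Washc5 on the opposite strand (2252 normalized counts, log2 fold change -0.15), and Fdft1 overlaps Ctsb (19515 normalized counts, log2 fold change 0.02). The libraries were stranded, but the strand setting of the counting is not given in the sources used here. On the same strand, Fdps overlaps Gm22935 (20.8 normalized counts), and Srebf2 overlaps Gm49502 (70.9 normalized counts) and Mir33. Idi1 has processed copies in the table, of which Idi1-ps1 was the most abundant (25.9 normalized counts), and reads could be split between them. Copies were sought only under the names of the 8 genes. Reads lost to copies under other names, for Fdps or the rest, were not examined.

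The spread of the Penk+/+ group was set by its replicates 3 and 4, which were at opposite ends. Replicate 3 had the highest value of the 8 libraries for 7 genes, with Srebf2 as the exception (highest in Penk-/- replicate 2). Replicate 4 was among the lowest 2 for 8 of 8, and Penk-/- replicate 3 for 6 of 8. The latter 2 are the libraries rich in Pbsn. Without Penk+/+ replicate 4, Hmgcs1, Sqle, Idi1, Fdft1 and Insig1 were lower in every Penk-/- library than in the remaining Penk+/+ libraries, 5 of 8 genes where 5.64% of all genes were. All 5 were then below an unadjusted limma p of 0.05, where 5.67% of all genes were so and lower, with log2 fold changes from -0.55 for Fdft1 to -0.37 for Insig1. Their adjusted p-values were 0.282 (Sqle) to 0.316 (Idi1). Without both libraries rich in Pbsn, the same 5 genes were lower without overlap (as were 7.57% of all genes) and lower at an unadjusted limma p below 0.05 (as were 4.7% of all genes), the median log2 fold change of the 8 was -0.35, and the smallest adjusted p was 0.329 (Sqle). A comparison of 3 against 3 can give no exact two-sided p below 0.1. Penk+/+ replicate 4 is singled out by its low values of these same genes, and the 5 genes varied together from mouse to mouse. The 5 are thus not separate results, and their separation without that library is no support for a genotype difference. Without Penk+/+ replicate 3, the median log2 fold change of the 8 was -0.07 and 0 of the 8 were below an unadjusted limma p of 0.05. The log2 fold changes were then -0.24 for Sqle, -0.22 for Hmgcs1 and Fdft1, -0.08 for Insig1 and -0.05 for Idi1, and those of Fdps (0.000371) and Lss (0.04) were no longer negative.

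**Figure D2:**
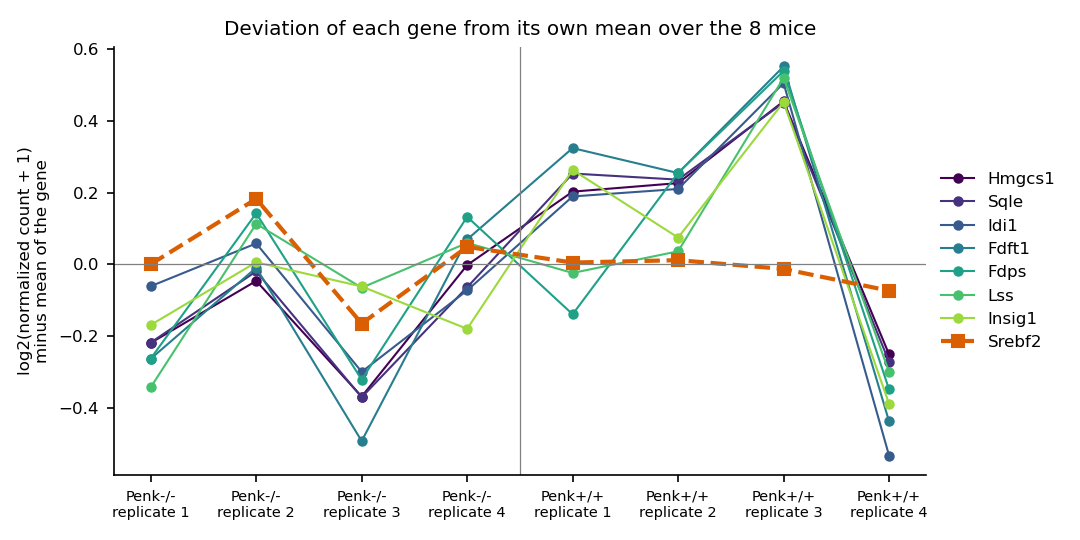
Deviation of log2(normalized count + 1) from the gene's own mean (vertical axis), for each library (horizontal axis), with 1 line per gene. The 6 enzymes and Insig1 peak in Penk+/+ replicate 3 and are low in Penk+/+ replicate 4, all but Lss and Insig1 are among the lowest 2 in Penk-/- replicate 3, and Srebf2 (dashed) is highest in Penk-/- replicate 2.

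The enzymes and Insig1 varied together from mouse to mouse, and the correlations of Srebf2 transcripts with them were lower. Over the 8 libraries the 28 pairs of genes had a median Pearson r of 0.826 on the log2 scale (0.149 to 0.994). The median over all 182911501 pairs of tested genes was -0.003, and 1.57% of these pairs were at or above 0.826. After centring on each genotype the median of the 28 pairs was 0.814, and 2.84% of all pairs, centred in the same way, were at or above it.

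The closest pair was Hmgcs1 and Sqle, with r = 0.994 (exact permutation test over 40320 pairings, two-sided, p = 0.000149, adjusted p over the 28 pairs 0.00139) and Spearman's rho = 0.952 (permutation p = 0.00114). Without the 2 libraries farthest from the median of Hmgcs1, r was 0.987. Hmgcs1 and Fdft1 had r = 0.986 (exact permutation p = 4.96e-05) and rho = 0.976, and r was 0.974 without the 2 farthest libraries. Of the 21 pairs among the enzymes and Insig1, 20 had an adjusted p below 0.05 for r and 13 for rho. The exception for r was Fdps with Insig1 (r = 0.681, exact permutation p = 0.0641), a pair whose r was 0.107 without the 2 farthest libraries and thus rests on them. For the 21 pairs, r without those libraries ran from 0.107 to 0.987. Idi1 with Lss, which is among the 20, fell from r = 0.780 to 0.301 without its 2 farthest libraries. The 21 pairs share genes and pool both genotypes, so the counts of 20 and 13 are not of separate results. The share of all gene pairs at such a p is not given here.

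Srebf2 had a median r of 0.362 with the other 7 genes, from 0.149 with Insig1 to 0.483 with Fdps. None of these 7 pairs reached an adjusted p of 0.05 by the exact permutation test, for r or rho. Without the 2 libraries farthest from the median of the other gene, the r of Srebf2 ran from 0.0597 with Insig1 to 0.676 with Fdps, and was 0.665 with Lss and 0.561 with Idi1. Against the mean standardised profile of the other 7 genes, Fdft1 had the highest r (0.962), and 3 of the 19119 genes outside the group were as high. Hmgcs1 (0.944), Sqle (0.943) and Idi1 (0.943) came next, followed by Fdps (0.889), Insig1 (0.826) and Lss (0.824). For Srebf2 it was 0.376, and 21.2% of the genes outside the group were as high. Relative to its mean, Srebf2 also had the smallest spread of the 8 genes between Penk+/+ mice (7593 ± 202 normalized counts, SD, n = 4). This did not hold between Penk-/- mice, where Srebf2 had 7801 ± 771 and Insig1, with a smaller relative spread, 4083 ± 254 (SD, n = 4).

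**Figure D3:**
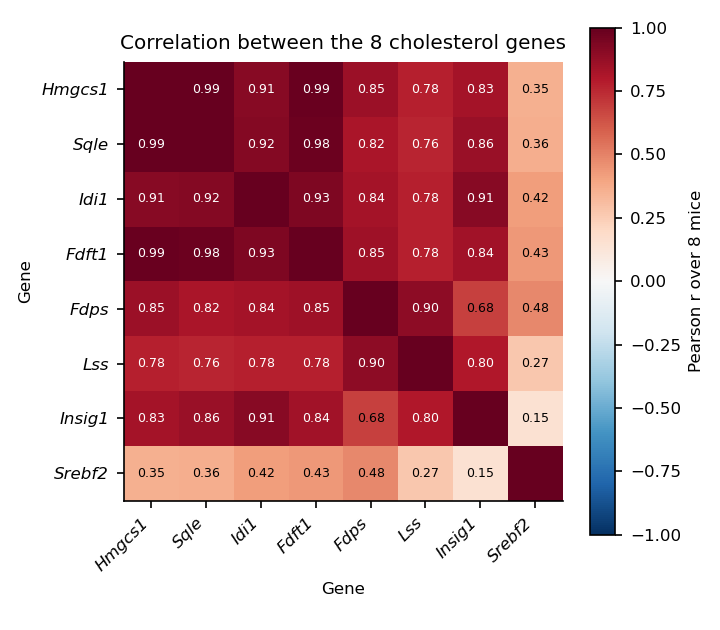
Pearson r over 8 mice (colour and number) for each pair of the 8 genes, on log2(normalized count + 1). The 21 pairs among the enzymes and Insig1 lie between 0.681 and 0.994, and the 7 pairs with Srebf2 between 0.149 and 0.483.

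The covariation did not hang on a single library. With each library left out in turn, the median r of the 28 pairs lay between 0.702 (without Penk+/+ replicate 3) and 0.857, and it was 0.788 without the 2 libraries rich in Pbsn. After removal of a linear fit on the epithelial marker score, it was 0.903. The mean deviation of the 8 genes and of the marker lists in each library can be set side by side. It was -0.27 in Penk-/- replicate 3 and -0.33 in Penk+/+ replicate 4 for the 8 genes, and -0.32 and 0.08 for the 10 epithelial markers. For the 9 crypt proliferation markers it was 0.01 and -0.40. In Penk+/+ replicate 3, where the 8 genes were at 0.43, the epithelial markers were at -0.04 and the proliferation markers at 0.22. In a tissue sample, fewer cells of a type and less RNA per cell cannot be told apart. The part of tissue composition, depth and Pbsn-rich tissue in the covariation was not tested beyond these values.

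Among all other genes, those most like the mean standardised profile of the 8 included further sterol genes. Among the 10 with the highest r were Tfb1m (0.976), Tcf4 (0.965), Cntrl (0.962), 5530601H04Rik (0.960), Gm56817 (0.958), 9330159M07Rik (0.955), Zfp874a (0.954), Ccdc51 (0.952) and Wbp2nl (0.951), over 8 libraries. Mvd, which makes isopentenyl diphosphate, was at rank 11 of 19119. Cyp51 and Hsd17b7, both enzymes after lanosterol, were at ranks 23 and 24. The lists of related genes differed in their median r with the profile, which was 0.676 for the 16 other synthesis enzymes, 0.323 for 14 uptake and transport genes, 0.254 for 12 genes of LXR and sterol efflux or storage, -0.168 for 11 genes of SREBP processing and control, and -0.44 for 14 SREBP1 fatty acid synthesis genes, against 0.0171 for all other genes. These are descriptions over the same 8 libraries, with no test.

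**Figure D4:**
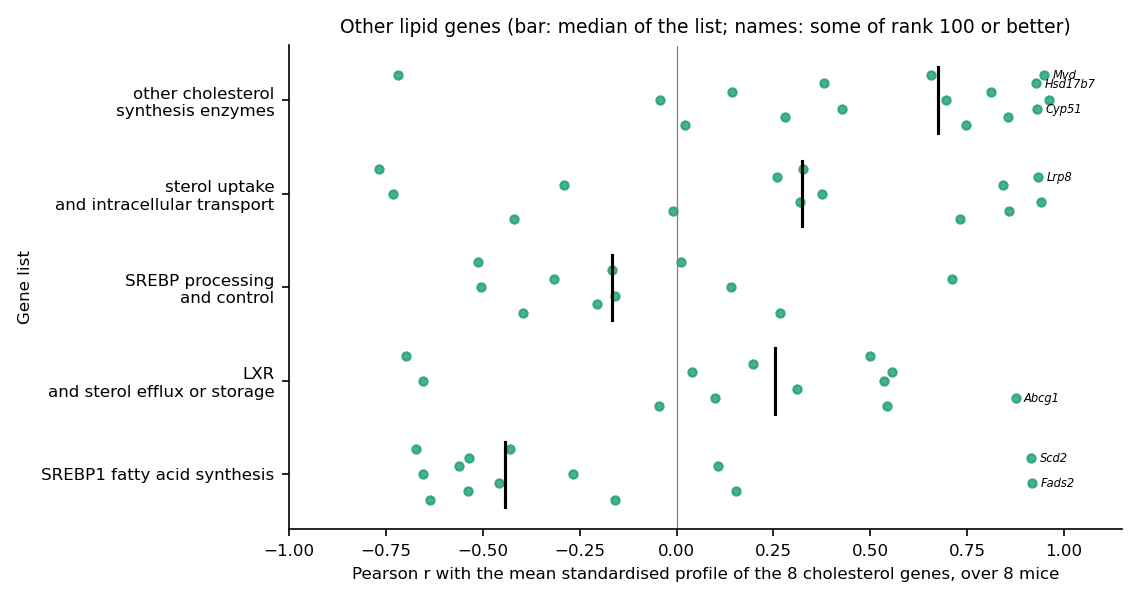
Pearson r of each gene of 5 lists (rows) with the mean standardised profile of the 8 cholesterol genes over 8 mice (horizontal axis), with the median of the list as a bar. The other synthesis enzymes have the highest median (0.676) and the SREBP1 fatty acid genes the lowest (-0.44), although Scd2 and Fads2 of the latter list rank among the first 100 genes.

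Among the later enzymes of the pathway was Msmo1, with the most negative fold change of the synthesis genes. Of the 16 other synthesis enzymes, 9 were lower and 7 higher in Penk-/- chimeras, 3 were lower at an unadjusted limma p below 0.05 and none was higher at it (median log2 fold change -0.06). Of all genes tested, 48.9% were lower, 5.33% lower at that p and 4.3% higher at it. Msmo1, a demethylase of methyl sterols, had 3941, 4224, 3420 and 4229 normalized counts in the Penk-/- and 6097, 5287, 6775 and 4194 in the Penk+/+ replicates 1 to 4. Its log2 fold change was -0.48 (standard error 0.14, limma adjusted p = 0.359, exact permutation p = 0.0857). Penk+/+ replicate 4 was again the lowest of its group, and it lay within the Penk-/- range.

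Sc5d, the lathosterol desaturase, had 4686, 4133, 3711 and 4563 normalized counts in the Penk-/- and 5343, 5040, 4921 and 5026 in the Penk+/+ replicates 1 to 4, without overlap. Its log2 fold change was -0.26 (standard error 0.08, limma adjusted p = 0.388, exact permutation p = 0.0286, the smallest possible). In the same list Pmvk, phosphomevalonate kinase, was separated the other way, with 1046, 1112, 1016 and 1021 normalized counts in the Penk-/- and 991, 984, 947 and 910 in the Penk+/+ replicates 1 to 4 (log2 fold change 0.13, limma adjusted p = 0.543, exact permutation p = 0.0286). Dhcr7, which completes cholesterol from 7-dehydrocholesterol, had a log2 fold change of -0.24 (limma adjusted p = 0.506, exact permutation p = 0.0857). In Penk-/- replicate 3 it had 3083 normalized counts, against 4109 to 4237 in the other Penk-/- libraries, and without that library its log2 fold change was -0.13.

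Of the 14 genes of sterol uptake and intracellular transport, 8 were lower and 6 higher, and 2, Npc1l1 and Mylip, were lower at an unadjusted limma p below 0.05, as were 5.33% of all genes (median log2 fold change -0.02). Npc1l1, the transporter that absorbs cholesterol at the apical membrane, was near the floor of the assay, with 5.05, 10.3, 9.45 and 3.31 normalized counts in the Penk-/- and 11.2, 24.7, 12.3 and 13.7 in the Penk+/+ replicates 1 to 4. It passed the filter on low values only through the Penk+/+ group (means of 7.03 and 15.5), so its difference is given as values alone and its place in the count above is no support. Mylip, a ubiquitin ligase that restrains sterol uptake, had a log2 fold change of -0.30 (limma adjusted p = 0.469, exact permutation p = 0.114). Npc2, a lysosomal sterol carrier and the most abundant gene of this list per kb, was at -0.02.

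Genes that respond to or remove excess sterol, many of them targets of the oxysterol receptor LXR, included Cyp27a1, which had the smallest p of the sterol genes listed. Of 12 genes, 7 were lower and 5 higher, with 3 lower at an unadjusted limma p below 0.05 (5.33% of all genes) and none higher (4.3% of all genes; median log2 fold change -0.03). Cyp27a1, the mitochondrial sterol 27-hydroxylase, had 1468, 1575, 1415 and 1678 normalized counts in the Penk-/- and 1909, 2072, 2045 and 1953 in the Penk+/+ replicates 1 to 4. The groups did not overlap, and its log2 fold change was -0.38 (standard error 0.07, limma p = 0.000279, adjusted p = 0.323, exact permutation p = 0.0286). Without the Pbsn-rich libraries its log2 fold change was -0.35.

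Abcg5 and Abcg8 form the transporter that returns sterols to the lumen. Abcg8 had 709, 1224, 662 and 788 normalized counts in the Penk-/- and 1466, 1444, 1061 and 1180 in the Penk+/+ replicates 1 to 4. Only Penk-/- replicate 2 reached the Penk+/+ range, and the log2 fold change was -0.64 (standard error 0.19, limma adjusted p = 0.385, exact permutation p = 0.0857). Abcg5 had a log2 fold change of -0.45 (limma adjusted p = 0.474, exact permutation p = 0.114). The 2 genes overlap each other on opposite strands, so their counts may share reads. Apoe, the most abundant gene of the list per kb, was at -0.01 (limma adjusted p = 0.990).

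**Figure D5:**
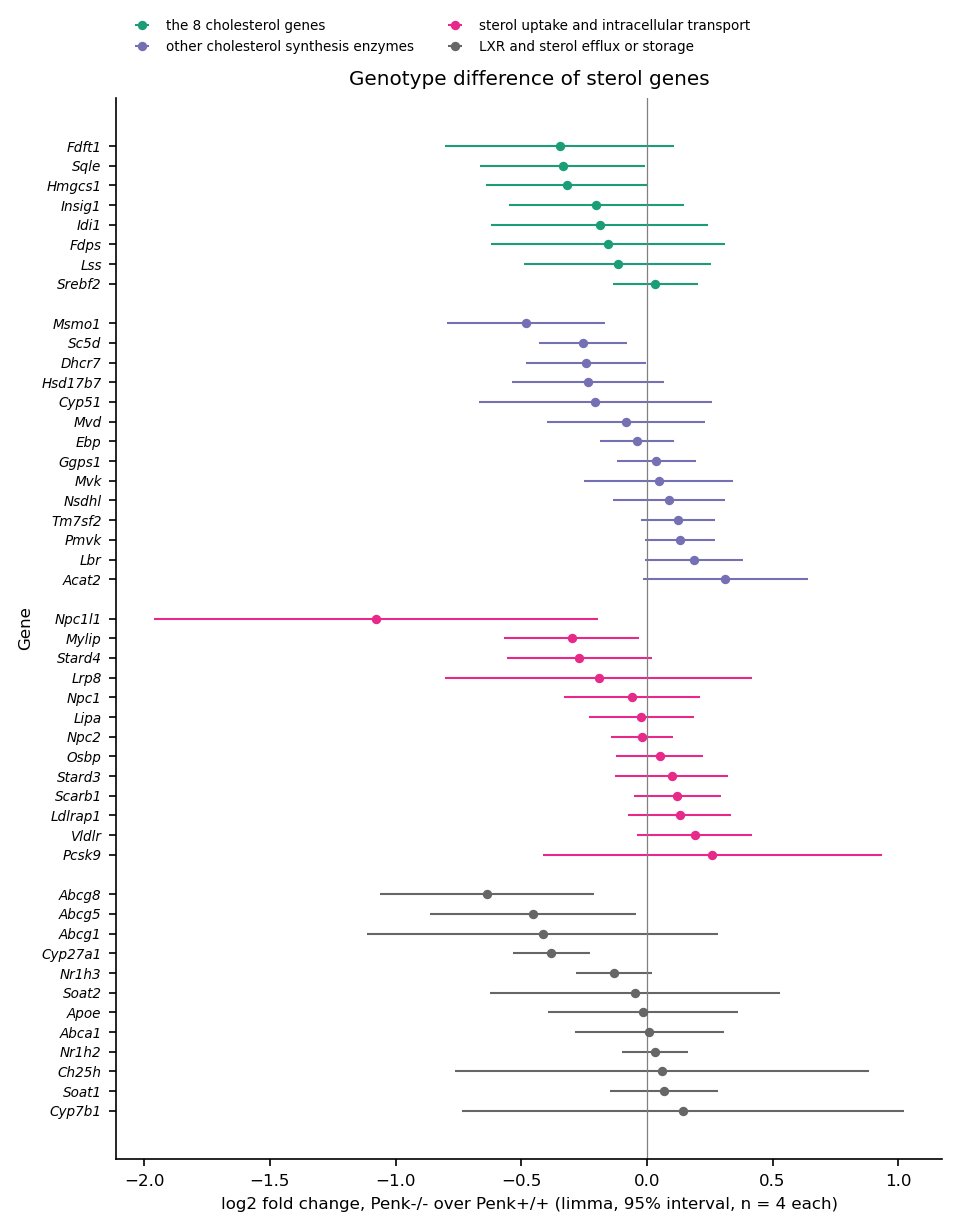
Log2 fold change of Penk-/- over Penk+/+ chimeras (horizontal axis, limma, bars for the 95% interval, n = 4 each) for the 8 genes and genes of 3 lists of related sterol genes (rows). The intervals of Sqle, Msmo1, Sc5d, Dhcr7, Mylip, Cyp27a1, Abcg8 and Abcg5 lie below 0, as does that of Npc1l1, which passed the filter on low values only through the Penk+/+ group, and no gene passes an adjusted p of 0.05.

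In the list of genes that carry, cut and hold SREBP the fold changes ran from -0.18 to 0.06. Of the 11 genes of this list, 5 were lower and 6 higher, none at an unadjusted limma p below 0.05, and their median log2 fold change was 0.00196. Scap, the escort of SREBP, was at 0.03, and Mbtps1, the first of the proteases that cut it, at 0.0070. The 14 SREBP1 fatty acid synthesis genes lay on the other side, with 2 lower and 12 higher in Penk-/- chimeras and a median log2 fold change of 0.20, none at an unadjusted limma p below 0.05. Scd2, a desaturase and the most abundant of them per kb, was at -0.07. The mean deviation of this list was highest in Penk-/- replicate 3 (0.79), against -0.28 to 0.32 in the other Penk-/- libraries. That library also had the highest adipocyte marker deviation (2.00), and the part of fat tissue in the list was not tested.

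The marker lists gave the cell makeup beside which these values stand. All 10 epithelial markers were lower in Penk-/- chimeras (median log2 fold change -0.15), as were 7 of 8 surface colonocyte markers (median -0.29, with Aqp8, a water channel, at -0.25), none at an unadjusted limma p below 0.05. All 9 crypt proliferation markers were higher (median 0.17, 2 of them at an unadjusted limma p below 0.05, as were 4.3% of all genes), with Pcna, the DNA polymerase clamp, at 0.09. All 7 fibroblast markers were higher (median 0.18; Col3a1, a collagen, at 0.31), as were all 7 adipocyte markers (median 0.83; Fabp4, a fatty acid binding protein, at 0.83), and none of them was at an unadjusted limma p below 0.05. In Penk-/- replicate 3 Fabp4 had 5541 normalized counts, against 763 to 1668 in the other Penk-/- and 652 to 1879 in the Penk+/+ libraries. The adipocyte median is given only with that library. The medians were 0.06 for smooth muscle (Actg2, 0.19), 0.14 for leukocytes (Lyz2, 0.19), -0.05 for glia and neurons (Prph, -0.12) and -0.04 for the prostate and accessory gland (Pbsn, 0.03). No marker gene of these lists that was found in the table was at 0 in every library. Whether tissue composition has a part in the lower means of the sterol genes was not tested.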

How the data were processed

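Gene expression was measured by stranded, paired-end poly-A RNA-seq of colon biopsies from 4 Penk-/- and 4 Penk+/+ chimeras. The authors aligned and counted reads with STAR 2.7.8a on GRCm39 (Ensembl release 107) and normalized them with DESeq2 1.30.0. The deposited signal values are read counts divided by a size factor per library, and the counting strand is not given in the sources used here. Of 26008 identifiers, 25776 were named from GENCODE M39.

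The main test was limma (version 3.58.1, with R 4.3.3; lmFit, then eBayes with trend) on log2(value + 1) over the 19127 genes with a mean of at least 10, without covariates, two-sided, with Benjamini-Hochberg adjustment. The fit was also tested on simulated data, and no result of that is used here. Fold changes on this scale understate those of low genes. Permutation tests were exact. A list's deviation is the mean, over its tested genes, of each gene's distance from its own log2 mean. Levels per kb use the union of exons. Other steps used scipy 1.17.1 and numpy 2.4.6 in Python 3.11.15.

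The genes and lists were chosen with earlier results of these data known. Named genes are the 8, Penk, up to 6 genes of each related list at p below 0.05, the most abundant gene per kb of each list, and the 10 genes most like the mean profile. Mvd, Pmvk, Cyp51, Hsd17b7, Fads2, Scap and Mbtps1, and overlapping genes, were added after their values were seen. Some genes of the lists are not reported here by name. P-values measure the spread between these mice, and replicate numbers name them without pairing them.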

Additional observations from a re-analysis of the deposited data

Results flagged for a closer look

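In 3 results 1 library was far from the other 3 of its group, by the ratio of the gap to the whole range (past Dixon's 95% critical value for 4 libraries). Chance flags about 1 group in 20, and 3.1 were expected among the 62 groups examined. Dhcr7 was lowest in Penk-/- replicate 3 (ratio 0.904 on the log2 scale, 3083 normalized counts against 4109 to 4237). The mean deviation of the sterol uptake and intracellular transport list was lowest in Penk+/+ replicate 4 (ratio 0.932, at -0.14 against 0.09 to 0.11). The mean deviation of the fibroblast markers was lowest in Penk-/- replicate 1 (ratio 0.947, at -0.27 against 0.22 to 0.25). The libraries of the first 2 results are those with the most Pbsn, and no cause was tested.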

How the results depend on the processing

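There were 4 mice per genotype, and the part of read depth was not tested. The median log2 fold change of the 8 genes stayed negative under every alternative run (-0.38 to -0.07 with 1 library left out). Genes at an adjusted limma p below 0.05 numbered 0, but 1 after quantile normalization and 0 to 6 with 1 library left out (6 without Penk-/- replicate 1). Of the 8 genes, 1 was at an unadjusted limma p below 0.05, but 2 without a filter on low values or with Pbsn as a covariate, 0 without trend or after quantile normalization, 5 without the 2 libraries with the most Pbsn, and 0 to 5 with 1 library left out (5 without Penk+/+ replicate 4). Of all genes, in either direction, 1842 of 19127 were at that p in the main fit. They were 2157 of 26008 without the filter and 1779 of 19127 with Pbsn as a covariate. Without trend they were 1785, and after quantile normalization 1892, of 19127. They were 1728 of 19066 without the 2 libraries with the most Pbsn, and 1995 of 19122 without Penk+/+ replicate 4. The alternatives with Pbsn were chosen after seeing the data, except for the correlation. The median r was 0.702 to 0.857 with 1 library left out, lowest without Penk+/+ replicate 3. With 1 library left out the log2 fold change ran from -0.296 to 0.000371 for Fdps and from -0.236 to 0.0371 for Lss, both turned without Penk+/+ replicate 3, and from -0.0213 to 0.0947 for Srebf2, turned without Penk-/- replicate 2. With the replicate number as a block, 1 gene passed the adjusted limma p and 2938 (against 1842) the unadjusted one, 0 of the 8 genes were at an unadjusted p below 0.05, and the median r was 0.964. The same-numbered libraries did not deviate together (correlations 0.145, -0.04, -0.32 and -0.16), and 0 of 4 Penk-/- libraries correlated best with their own number, so the block is no pairing of mice. The cause of these shifts was not tested. The count tests of edgeR and DESeq2 planned as alternatives were not run.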
